A study of Mus musculus with 6 samples.

Results

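Glucose and lactate transport, glycolysis and the pentose phosphate pathway were followed through 32 genes in sorted mouse brain endothelial cells. The members were the rows of the deposited gene table that carry 1 of these 32 gene names, which gave 33 of 54532 rows because Aldoa stands under 2 gene identifiers. Of the 33 rows, 28 had an FPKM of at least 1 in at least 3 of the 6 libraries and were tested, among 11277 rows tested in all. FPKM divides the fragments of a gene by its length and by library size, so it is a level per length. In 32 of the 33 rows that length was the number of all annotated exon bases of the gene. Setting genes side by side within a library therefore also depends on the annotation.

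All mice were 12 to 16 weeks old and carried Df(h22q11)/+, a loss of 1 copy of the region that corresponds to the one missing in people with 22q11.2 deletion syndrome. The BF_22q group ate chow enriched with 0.5% bezafibrate, a fibrate drug that activates PPAR nuclear receptors, for 4 weeks. The UT_22q group ate irradiated base chow and is called untreated here. Each library was a pool of 3 brains of 1 sex. The bezafibrate libraries were F_1 (female), M_1 and M_2 (male), and the untreated libraries were F_1 and F_2 (female) and M_1 (male). Live cells positive for CD31 and negative for CD45 and PDGFRb were sorted by flow cytometry, a gate meant to hold endothelial cells without leukocytes or pericytes. The design compares the chows on the deletion background. Wild-type mice were not analysed here, so nothing below bears on the deletion itself.

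The libraries held 16858130 to 20228619 recovered reads, and 11060 to 11387 genes reached 1 FPKM. All 12 endothelial markers passed the filter, with a summed level of 4334 to 5541 FPKM in bezafibrate and 4840 to 5703 FPKM in untreated libraries. Ptprc, which encodes CD45, was at most 0.0349 FPKM in any library, and the neuronal gene Snap25 at most 0.262. Other genes of their lists were higher. The 8 neuronal markers summed to 13.97 to 17.3 FPKM in bezafibrate and 13.7 to 19.4 in untreated libraries. Most of this was Stmn2, at 9.64 to 15.1 FPKM, and 2 of the 8 passed the filter. The 8 microglial markers summed to 8.20 to 14.6 and 12.1 to 19.4 FPKM, and 5 of them passed it. Markers of further cell types were present as well. The 9 pericyte markers summed to 187 to 263 FPKM in bezafibrate and 191 to 343 in untreated libraries, and 9 astrocyte markers to 48.2 to 75.0 and 62.5 to 88.8 FPKM. In the same order, 8 oligodendrocyte markers summed to 96.1 to 110 and 99.0 to 162 FPKM. Smooth muscle markers summed to 74.3 to 99.3 and 62.1 to 86.2 FPKM, and erythrocyte markers to 51.4 to 149 and 45.4 to 298 FPKM. Choroid plexus markers, led by Ttr, summed to 405 to 936 FPKM in bezafibrate libraries, all above the 358 to 398 of the untreated ones. Between the chows, limma called no gene of these lists, and 9 of 9 astrocyte, 8 of 8 oligodendrocyte and 8 of 9 pericyte markers lay below 0 with bezafibrate (7 of 9, 8 of 8 and 7 of 9 after rescaling to TPM). Of all genes tested, 51.8% lay below 0, and 31.7% after rescaling to TPM. Counts for the other marker lists are not given here. No member list was tested against these sums, and their part in any value below was not tested. Bezafibrate F_1 and untreated M_1 stood apart on the first principal component (39.3% of the variance), with scores of 24.4 and 30.3, while the other libraries lay between -22.6 and 1.62. The chow differences that these libraries moved most are given with and without them. Each library is a bulk pool, so fewer cells of a type and less RNA per cell cannot be told apart.

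Brain endothelium takes up glucose for the whole brain. Glucose crosses both faces of the cell on the facilitative carrier GLUT1, and lactate and ketone bodies cross on monocarboxylate carriers, which need the membrane chaperone basigin to reach the surface. Inside the cell, hexokinase traps glucose, phosphofructokinase commits it to glycolysis, and lactate dehydrogenase links the final pyruvate to lactate. The pentose phosphate pathway leaves at glucose 6-phosphate, where its oxidative branch makes NADPH and its non-oxidative branch rearranges sugars back into glycolysis.

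Transport stood far above the enzymes. Slc2a1, which encodes GLUT1, had 5337, 2705 and 3404 FPKM in bezafibrate F_1, M_1 and M_2, against 3158, 4430 and 5752 FPKM in untreated F_1, F_2 and M_1. It ranked between 3 and 8 among protein-coding genes by FPKM in every library. The highest and the lowest library were untreated M_1 and bezafibrate M_1, and the chows overlapped. Bsg, which encodes basigin, had 4452, 4147 and 3950 FPKM in bezafibrate F_1, M_1 and M_2, against 4364, 5061 and 3974 FPKM in untreated F_1, F_2 and M_1. Its levels lay within 1.28-fold of each other over the 6 libraries, while those of Slc2a1 spanned 2.13-fold. Slc2a3, the neuronal glucose transporter GLUT3, was at 0.0383 to 0.370 FPKM in bezafibrate and 0.119 to 0.281 FPKM in untreated libraries, on 5 to 57 reads, and did not pass the filter.

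Slc16a1, which encodes MCT1, the lactate and ketone body carrier of brain endothelium, had 29.4, 63.1 and 60.04 FPKM in bezafibrate F_1, M_1 and M_2. In untreated F_1, F_2 and M_1 it had 78.1, 59.5 and 36.9 FPKM. Bezafibrate F_1 and untreated M_1 were its lowest libraries. Slc16a3, which encodes MCT4, a carrier typical of cells that export lactate, had 2.12, 0.592 and 0.470 FPKM in bezafibrate F_1, M_1 and M_2. In untreated F_1, F_2 and M_1 it had 0.916, 1.20 and 5.995 FPKM, on 98, 114 and 592 reads. Its highest libraries were the 2 that were lowest for Slc16a1, and its range of 12.7-fold was the widest among the 28 tested members.

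Promoters of these carriers are shown with that of Pgk1, a glycolytic gene described further down, because Slc2a1, Slc16a3 and Pgk1 were highest in the same pair of libraries and Slc16a1 was lowest there. That pair was also highest for Hk1, Gpi1, Pfkp, Aldoa, Pgam1, Pkm and Ldha, whose windows are not printed. The choice of Slc2a1, Slc16a3, Pgk1 and Slc16a1 was made after their values were seen. Each run is the RefSeq window of GRCm38.p6 from 250 bases before the transcription start to 50 after it, 5′ to 3′ on the gene's own strand, which is the plus strand for all 4. Capitals mark ACGTG and GCGTG on either strand, the core letters of the hypoxia response element that HIF factors bind. The windows are chr4:119108495-119108794 for Slc2a1, chr11:120948817-120949116 for Slc16a3, chrX:106186850-106187149 for Pgk1 and chr3:104638414-104638713 for Slc16a1.
Slc2a1: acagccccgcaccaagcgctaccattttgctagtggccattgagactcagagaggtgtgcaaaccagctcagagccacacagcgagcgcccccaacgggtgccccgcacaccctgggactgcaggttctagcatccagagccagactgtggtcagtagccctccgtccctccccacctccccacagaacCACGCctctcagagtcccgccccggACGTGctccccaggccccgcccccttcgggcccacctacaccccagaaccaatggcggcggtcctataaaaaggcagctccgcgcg
Slc16a3: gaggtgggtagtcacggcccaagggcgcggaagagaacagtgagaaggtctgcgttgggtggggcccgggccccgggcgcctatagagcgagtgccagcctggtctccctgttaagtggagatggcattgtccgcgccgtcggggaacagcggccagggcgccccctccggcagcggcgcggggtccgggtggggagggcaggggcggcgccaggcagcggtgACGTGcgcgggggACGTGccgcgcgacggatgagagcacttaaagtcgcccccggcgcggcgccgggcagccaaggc
Pgk1: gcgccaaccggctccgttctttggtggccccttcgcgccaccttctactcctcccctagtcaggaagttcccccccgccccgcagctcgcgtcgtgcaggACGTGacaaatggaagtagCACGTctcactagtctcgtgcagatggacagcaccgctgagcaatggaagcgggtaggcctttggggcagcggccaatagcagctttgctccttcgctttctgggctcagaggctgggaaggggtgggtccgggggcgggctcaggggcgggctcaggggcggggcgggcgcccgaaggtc
Slc16a1: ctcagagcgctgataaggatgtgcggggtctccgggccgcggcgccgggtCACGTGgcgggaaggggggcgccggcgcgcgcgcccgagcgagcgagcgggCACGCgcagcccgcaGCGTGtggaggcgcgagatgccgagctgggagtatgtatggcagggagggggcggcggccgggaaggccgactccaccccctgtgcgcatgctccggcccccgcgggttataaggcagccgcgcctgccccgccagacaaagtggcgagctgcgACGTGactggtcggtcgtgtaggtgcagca

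Slc2a1 held 1 match to ACGTG and 1 to GCGTG, Slc16a3 and Pgk1 held 2 matches to ACGTG each, and Slc16a1 held 3 to ACGTG and 2 to GCGTG. The letters CACGTG in the Slc16a1 window read the same on both strands and count as 2 of its 3. Of the 30 members with a window in the table, 12 held ACGTG (40%), 17 held GCGTG (56.7%) and 22 held either (73.3%). Over all 32851 windows of the same length the shares were 19.6%, 32.4% and 43.8%. For a member with several RefSeq starts, the window whose start lay near the most coding transcripts was taken. The background holds every window without such a choice, so the sets are unlike. The members' windows had a median GC content of 60.5%, against 52.7% over all windows, and both motifs are rich in G and C. The gene with the most matches was Ldha, with 7. Of the other unprinted members highest in the same pair of libraries, Pfkp held 4 and Pgam1 3. Hk1, Gpi1, Aldoa and Pkm held 0. A match is a description of the letters and not of binding. Slc2a3 and Bsg have no window here.

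**Figure D1:**
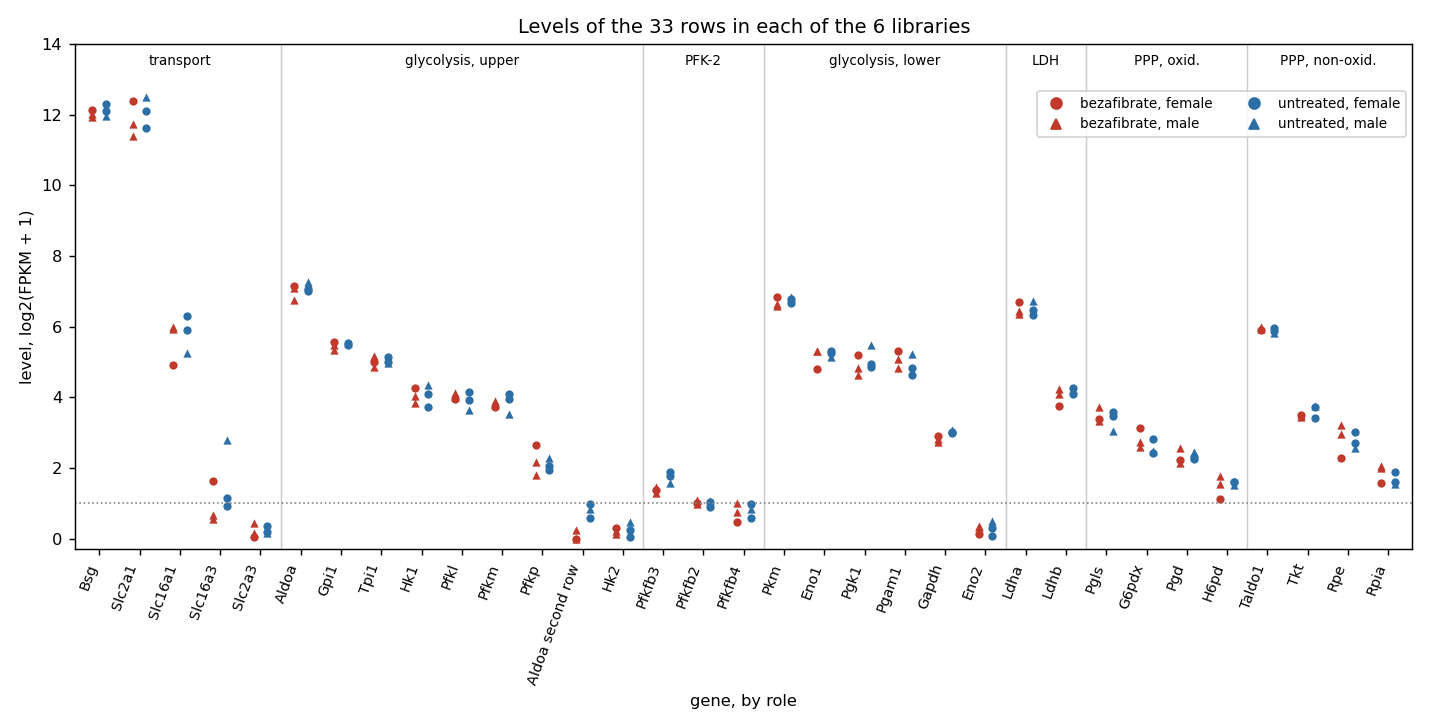
Level of each of the 33 rows in each library, as log2(FPKM + 1), by role (PPP is the pentose phosphate pathway). Red marks are bezafibrate libraries and blue marks untreated ones, circles are female and triangles male, and the dotted line is 1 FPKM. Bsg and Slc2a1 lie between 2705 and 5752 FPKM, far above every enzyme, and the chows overlap for nearly every gene.

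In the upper part of glycolysis, Aldoa, the aldolase that splits fructose 1,6-bisphosphate, was the most abundant enzyme of all members, at 108 to 142 FPKM in bezafibrate and 128 to 154 FPKM in untreated libraries. Gpi1, glucose-6-phosphate isomerase, followed at 39.2 to 46.3 FPKM in bezafibrate and 43.9 to 46.0 FPKM in untreated libraries. Tpi1, triosephosphate isomerase, had 28.2 to 34.9 FPKM with bezafibrate and 30.3 to 34.1 FPKM without it. These 3 enzymes varied little, with a coefficient of variation over the 6 libraries of 11.4% for Aldoa, 5.98% for Gpi1 and 7.84% for Tpi1. Hk1, the first and trapping enzyme, had 18.3, 13.2 and 15.4 FPKM in bezafibrate F_1, M_1 and M_2, against 12.3, 16.1 and 19.6 FPKM in untreated F_1, F_2 and M_1. Hk2, the insulin- and hypoxia-responsive hexokinase, stayed at 0.102 to 0.233 FPKM in bezafibrate and 0.0333 to 0.379 FPKM in untreated libraries. The second row named Aldoa, ENSMUSG00000114515, lies on chromosome 7 from 126800790 to 126809108. It was listed at 0, 0.177 and 0 FPKM in bezafibrate F_1, M_1 and M_2, and at 0.996, 0.492 and 0.809 FPKM in untreated F_1, F_2 and M_1. These rest on 0, 3 and 0 reads against 16, 7 and 12 reads, and although the chows did not overlap, the row was under the filter and received no test.

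The phosphofructokinase step was shared by Pfkl, Pfkm and Pfkp, the liver, muscle and platelet subunits. Pfkl had 14.5, 16.6 and 15.2 FPKM in bezafibrate libraries and 14.3, 16.7 and 11.5 FPKM in untreated libraries. Pfkm had 12.1 to 13.9 FPKM in bezafibrate and 10.4 to 16.3 FPKM in untreated libraries, and Pfkp 2.47 to 5.30 and 2.88 to 3.91 FPKM. Pfkfb2, Pfkfb3 and Pfkfb4 make and break fructose 2,6-bisphosphate, the activator of phosphofructokinase, and Pfkfb3 is the form with the strongest kinase bias. Pfkfb3 had 1.62, 1.43 and 1.75 FPKM in bezafibrate F_1, M_1 and M_2, against 2.74, 2.45 and 1.98 FPKM in untreated F_1, F_2 and M_1. Every bezafibrate library lay below every untreated one. Pfkfb2 stayed near 1 FPKM, at 0.976 to 1.13 with bezafibrate and 0.857 to 1.08 without it. Pfkfb4 was at 0.399 to 1.03 FPKM in bezafibrate and 0.510 to 0.990 FPKM in untreated libraries and did not pass the filter.

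In the lower part, Pkm, the pyruvate kinase of most tissues, had 96.0 to 113 FPKM in bezafibrate and 99.9 to 113 FPKM in untreated libraries. Eno1, the main enolase, had 27.0, 39.1 and 38.7 FPKM in bezafibrate F_1, M_1 and M_2, against 37.5, 39.0 and 34.2 FPKM in untreated F_1, F_2 and M_1. Its lowest library was bezafibrate F_1. Pgk1, the X-linked kinase that makes the first ATP of glycolysis, had 35.7, 24.1 and 27.6 FPKM in bezafibrate F_1, M_1 and M_2, against 28.1, 30.04 and 43.4 FPKM in untreated F_1, F_2 and M_1. Untreated M_1 and bezafibrate F_1 were its highest libraries. Pgam1, phosphoglycerate mutase, had 38.5, 27.3 and 33.1 FPKM in bezafibrate F_1, M_1 and M_2, against 27.4, 23.6 and 36.2 FPKM in untreated F_1, F_2 and M_1. Gapdh, glyceraldehyde-3-phosphate dehydrogenase, was listed at only 6.52, 6.05 and 5.70 FPKM in bezafibrate F_1, M_1 and M_2, against 6.92, 7.16 and 7.45 FPKM in untreated F_1, F_2 and M_1. The chows did not overlap for Gapdh, with bezafibrate below. Eno2, the neuronal enolase, did not exceed 0.294 FPKM in bezafibrate and 0.412 FPKM in untreated libraries.

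The level of Gapdh has to be read with its length and its sequence. Its reads were divided by 4133 bases, while its transcript with the longest coding sequence has 1273 bases. Of the 75-base windows in the Gapdh transcript with the longest coding sequence, 88.2% also occur in transcripts of other genes, and 121 genes share at least 1 window with any Gapdh transcript, of which 114 are annotated as pseudogenes. The highest of those genes, Gm7336, reached 12.7 FPKM in a library. The same share was 67.5% for Pgk1, 65.4% for Eno1, 62.0% for Pfkfb2 and 40.6% for Pgam1, while Slc16a1, Slc16a3, Pfkfb3, Bsg and Tkt shared 0%. The deposited values come to whole reads per gene. The labels do not say whether reads that fit several genes were dropped, placed in a single gene, or split and then rounded. The levels of Gapdh, Pgk1, Eno1, Pfkfb2 and Pgam1 are therefore uncertain. Slc2a1 overlaps the gene Gm12868, which reached 431 FPKM, over 2.99% of its exon bases, and the use of strand is not given either.

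**Figure D2:**
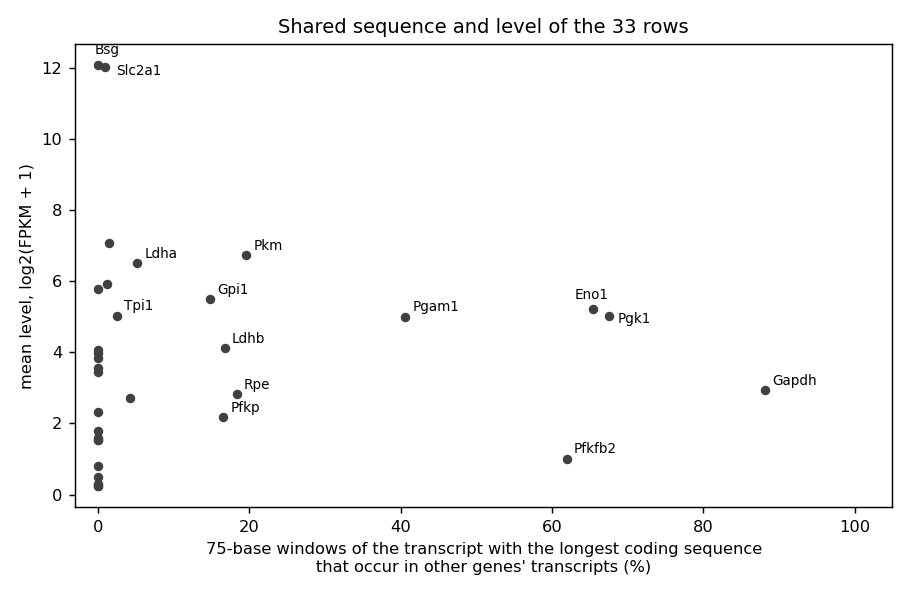
Share of 75-base windows that other genes' transcripts also hold, in the transcript with the longest coding sequence (horizontal, %), against the mean level over 6 libraries (vertical, log2(FPKM + 1)), for the 33 rows. Gapdh is farthest right at 88.2%, and the transport genes Bsg and Slc2a1 sit at the left edge at 0% and 0.973%.

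Lactate dehydrogenase was mostly Ldha, the muscle-type subunit. Ldha had 102, 80.8 and 85.6 FPKM in bezafibrate F_1, M_1 and M_2, against 79.9, 87.7 and 104.7 FPKM in untreated F_1, F_2 and M_1. Ldhb, the heart-type subunit, had 12.6, 16.1 and 17.7 FPKM in bezafibrate F_1, M_1 and M_2, against 18.2, 16.2 and 17.7 FPKM in untreated F_1, F_2 and M_1. Both genes overlapped between the chows.

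The pentose phosphate enzymes were low in the oxidative branch and led by transaldolase in the other. G6pdx, the X-linked dehydrogenase that opens the oxidative branch, had 7.76, 5.04 and 5.65 FPKM in bezafibrate F_1, M_1 and M_2, against 6.14, 4.37 and 4.58 FPKM in untreated F_1, F_2 and M_1. Within females and within males, its bezafibrate libraries lay above the untreated ones, and across the sexes the chows overlapped. Pgls, the lactonase, had 9.06 to 12.2 FPKM with bezafibrate and 7.33 to 10.9 FPKM without it, and Pgd, the second dehydrogenase, 3.45 to 4.97 and 3.75 to 4.49 FPKM. H6pd, which runs the first reactions in the endoplasmic reticulum, had 1.20 to 2.41 FPKM in bezafibrate and 1.88 to 2.04 FPKM in untreated libraries. In the non-oxidative branch, Taldo1, transaldolase, was the steadiest of the tested members, at 58.4, 60.5 and 63.1 FPKM in bezafibrate libraries and 57.9, 61.6 and 55.7 FPKM in untreated libraries. Its coefficient of variation was 4.53%, against 111% for Slc16a3. Tkt, transketolase, had 9.89 to 10.4 FPKM with bezafibrate and 9.70 to 12.5 FPKM without it. The isomerase Rpia had 2.01 to 3.20 FPKM in bezafibrate and 1.91 to 2.68 FPKM in untreated libraries, and the epimerase Rpe 3.89 to 8.31 and 4.97 to 7.06 FPKM.

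Which paralog carried each step was described for 15 steps, as the share of the step's summed FPKM held by each gene in a library. These shares depend on the exon lengths used. For Pfkp that length was 13401 bases, against 4145 in its transcript with the longest coding sequence, and for Pfkm 3340 against 2879 bases. In bezafibrate F_1, Pfkp had 1278 reads and Pfkm 730, although Pfkm was higher by FPKM. In untreated F_1, Pfkm led Pfkl by FPKM, on 1092 reads against 1919. Slc2a1 held 99.9545% to 99.985% of the summed level of 5 glucose carriers in every library, and Bsg 99.97% to 99.99% of the basigin and embigin pair. Hk1 held 97.95%, 97.89% and 98.3% of hexokinase in bezafibrate F_1, M_1 and M_2, against 96.1%, 98.2% and 97.9% in untreated F_1, F_2 and M_1. In all, 8 steps had 1 gene above 90% in every library, the others being Gapdh, Pgk1, Pgam1, Pkm and Tkt. Slc16a1 held 91.1%, 98.6% and 97.7% of the monocarboxylate carriers in bezafibrate F_1, M_1 and M_2, against 97.9%, 97.5% and 85.2% in untreated F_1, F_2 and M_1. The low values were those of bezafibrate F_1 and untreated M_1, where Slc16a3 held 6.57% and 13.8%.

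At other steps a second gene was present. Aldoc, an aldolase that also marks astrocytes, had 10.5, 17.9 and 18.5 FPKM in bezafibrate and 24.98, 17.1 and 22.1 FPKM in untreated libraries, which left Aldoa with 85.6% to 93.1% and 84.3% to 88.1% of the step. Eno3, the muscle enolase, had 4.11 to 5.91 FPKM with bezafibrate and 3.03 to 4.97 FPKM without it, and Eno1 held 81.8% to 90.0% and 88.6% to 92.0%. Eno1b, the gene that shares the most 75-base windows with Eno1, reached 3.29 FPKM in a library and was not counted in this step. Ldha held 82.9% to 89.1% of lactate dehydrogenase in bezafibrate and 81.2% to 85.5% in untreated libraries. G6pdx held 67.7% to 86.6% and 68.3% to 75.0% of its step, and H6pd the rest. Phosphofructokinase and the PFK-2 step had no such leader: Pfkl held 45.4% to 49.9% in bezafibrate and 42.4% to 49.1% in untreated libraries, and Pfkfb3 38.2% to 50.4% and 50.1% to 63.1%. Pgk2 was listed at 0 in every library.

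Between the chows, the leading gene's share differed without overlap only for Bsg, by -0.0108 percentage points in bezafibrate against untreated (exact permutation test over the 6 libraries, two-sided p = 0.1, the smallest that 3 against 3 allows). The smallest value after Benjamini-Hochberg adjustment over the 15 steps was 0.938. From recovered reads not divided by length, 2 steps did not overlap.

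**Figure D3:**
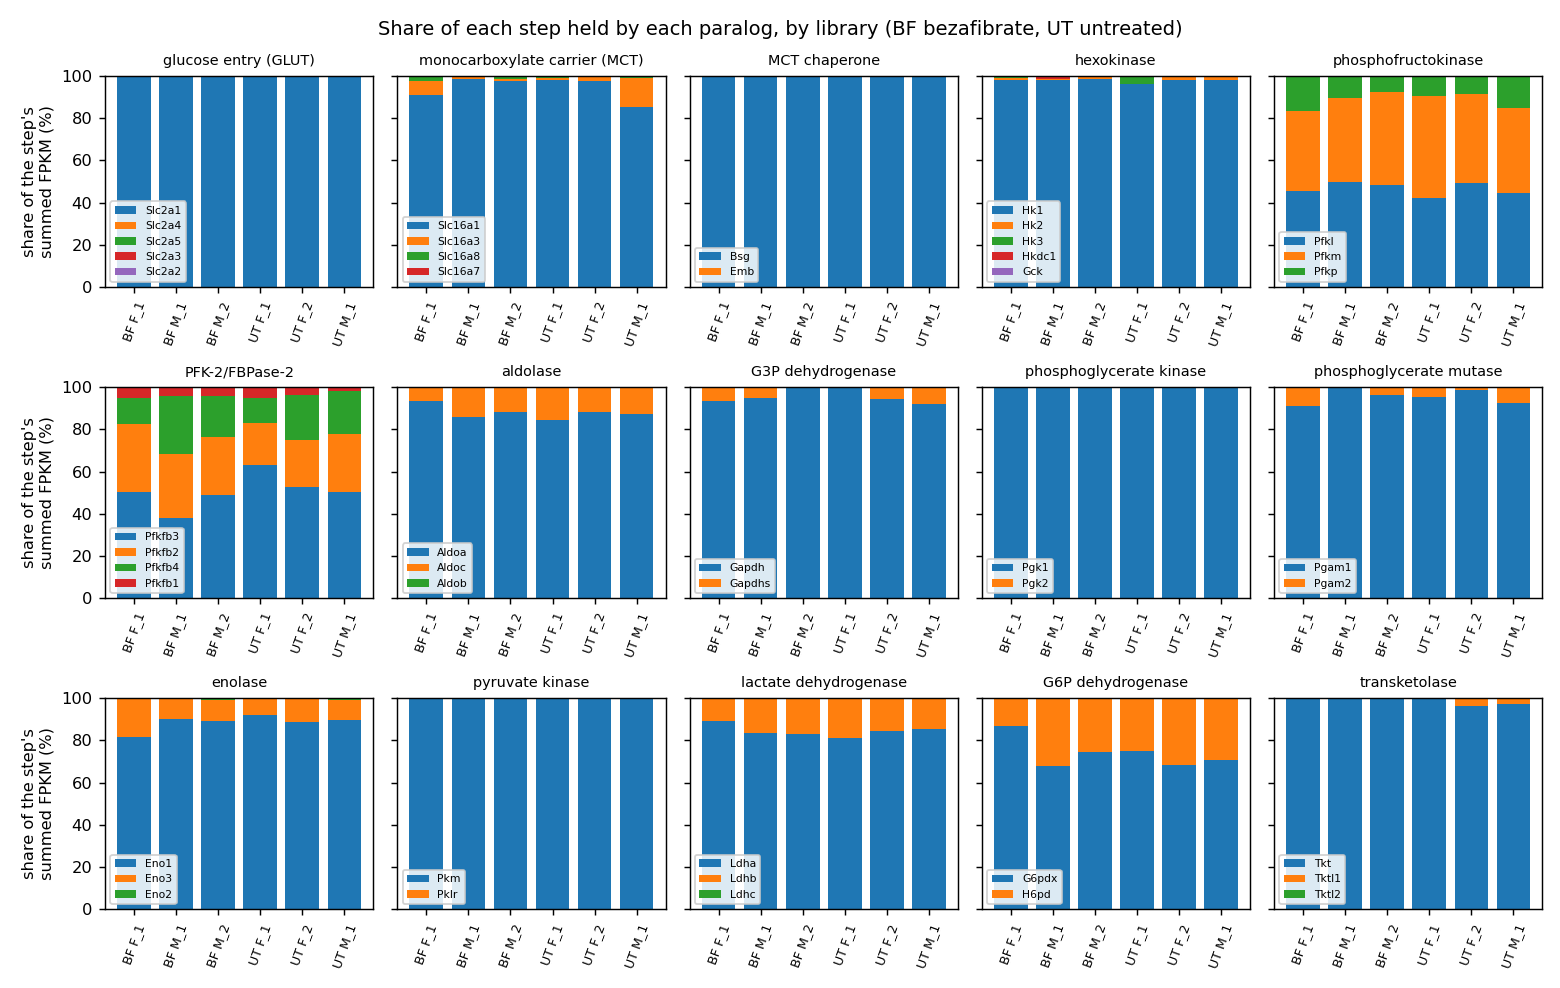
Share of each step's summed FPKM held by each paralog (vertical, %), by library, for 15 steps, with bezafibrate (BF) libraries left of untreated (UT) ones. A single colour fills most steps, while phosphofructokinase and PFK-2 are split, and the share of Slc16a3 is widest in untreated M_1 at 13.8%.

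Bezafibrate changed none of the 28 tested members past the threshold. In limma's test over all genes, 0 of 28 were called at a Benjamini-Hochberg adjusted p under 0.05, where 0.00887% of all 11277 genes were called, a single gene that is no member. At an unadjusted p under 0.05 there were 0 members as well, against 4.19% of all genes, and limma-voom on recovered reads also called 0 members. The log2 differences, bezafibrate minus untreated, were above 0 in 9 members and below 0 in 19, with a median of -0.06, against -0.01 over all genes. This split depended on the scaling between libraries. Rescaled to TPM, 19 members were above 0 and 9 below, with a median of 0.06 beside a shift of the all-gene median to 0.10, and quantile scaling gave 17 above and 11 below. Without bezafibrate F_1 and untreated M_1, 10 were above and 16 below among 26 tested, with a median of -0.02, but the chows then coincide with the sexes and cannot be told apart from them.

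The member nearest the threshold was Pfkfb3, at 1.5997 ± 0.162 FPKM in bezafibrate and 2.39 ± 0.382 FPKM in untreated libraries (SD, n = 3 each). Its log2 difference was -0.38 (95% interval -0.77 to 0.01, limma adjusted p = 0.999), and it was -0.47 without bezafibrate F_1 and untreated M_1 (adjusted p = 0.583). Gapdh averaged 6.09 ± 0.410 FPKM in bezafibrate and 7.18 ± 0.268 FPKM in untreated libraries, a log2 difference of -0.21 (95% interval -0.50 to 0.09). Pfkfb3 and Gapdh were the 2 tested members whose chows did not overlap, both with bezafibrate below. Over all genes, 8.42% did not overlap and 4.13% did so with bezafibrate below, so 2 of 28 members lies near that background.

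The widest intervals belonged to Slc16a3, Slc16a1 and Slc2a1. Slc16a3 averaged 1.06 ± 0.9196 FPKM in bezafibrate and 2.70 ± 2.85 FPKM in untreated libraries, a log2 difference of -0.67 with a 95% interval of -1.88 to 0.54. It reached 1 FPKM in 3 libraries only and no longer passed the filter without any 1 of them (bezafibrate F_1, untreated F_2 or untreated M_1). Slc2a1 averaged 3815 ± 1364 and 4447 ± 1297 FPKM, a log2 difference of -0.24 (-0.97 to 0.50). That value was -0.03 without untreated M_1 and -0.02 without bezafibrate M_1, but -0.51 without bezafibrate F_1 and -0.46 without untreated F_1. Slc16a1 averaged 50.8 ± 18.6 and 58.2 ± 20.6 FPKM, a log2 difference of -0.20 (-1.03 to 0.63). It was 0.14 without bezafibrate F_1 and 0.04 without untreated F_1, but -0.49 without untreated M_1, -0.39 without bezafibrate M_1 and -0.36 without bezafibrate M_2. The narrowest interval was that of Taldo1, 0.05 (-0.23 to 0.34). On the positive side the largest differences were those of G6pdx, 0.24 (-0.21 to 0.69), Rpia, 0.22 (-0.23 to 0.67), and Pgam1, 0.18 (-0.28 to 0.65), and that of G6pdx was 0.03 without bezafibrate F_1 and untreated M_1. An adjusted p near 1 does not show that the chows act alike, and the intervals give the changes these libraries leave possible.

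**Figure D4:**
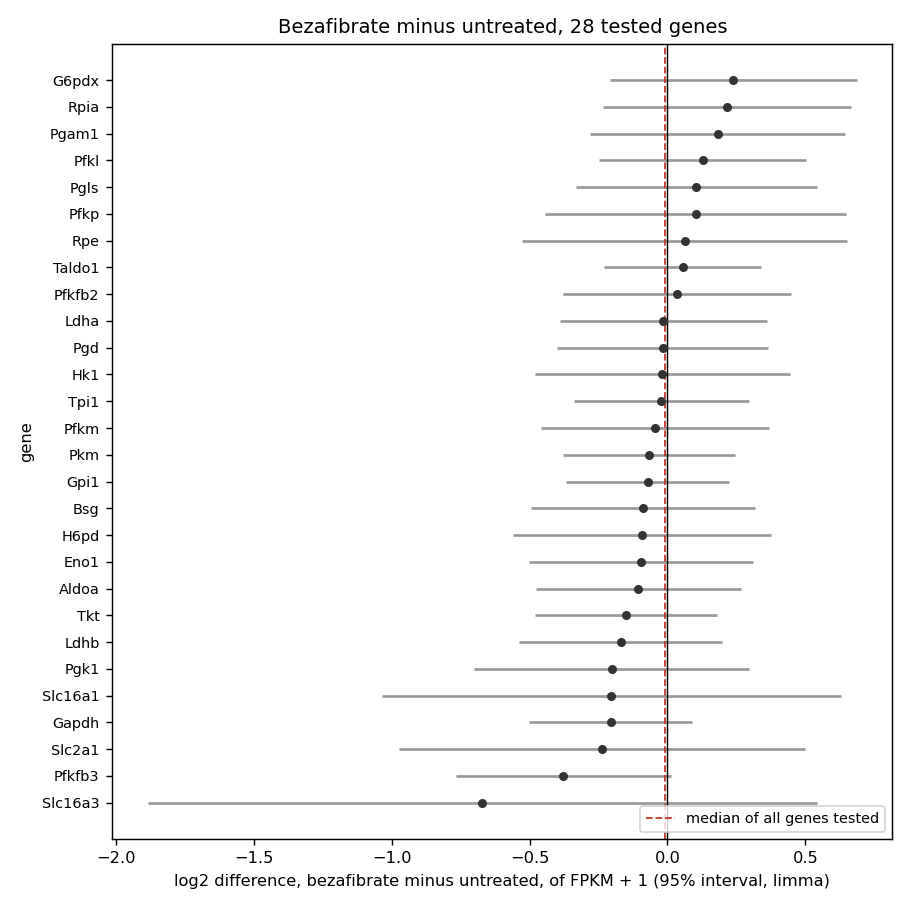
Log2 difference of FPKM + 1, bezafibrate minus untreated, of the 28 tested members, with the 95% interval from limma (3 libraries each). Points right of 0 are higher with bezafibrate. Every interval includes 0, the nearest to leaving it being that of Pfkfb3 (-0.77 to 0.01), and the dashed line is the median of all genes, -0.01.

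By role, no group of members had a call. The counts below stand beside all genes tested, of which 51.8% lay below 0, 31.7% after rescaling to TPM and 48.9% after quantile scaling. The 4 tested transport genes were all below 0 (median -0.22), but 1 was above 0 after rescaling to TPM and 2 after quantile scaling. The 7 tested genes of the upper part had 2 above 0 and 5 below, and 7 above 0 after rescaling to TPM. The 5 tested genes of the lower part had 1 above and 4 below, and 3 above after rescaling to TPM. Ldha and Ldhb both lay below 0, and 1 of the 2 lay above it after rescaling to TPM. At the PFK-2 step, Pfkfb2 lay above 0 and Pfkfb3 below under both scalings. The pentose phosphate genes had 2 of 4 above 0 in the oxidative branch, 3 of 4 after rescaling to TPM, and 3 of 4 in the non-oxidative branch under both scalings.

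The sexes were set apart next, since bezafibrate had 1 female library of 3 and untreated 2 of 3. Between males and females, with chow as a covariate, limma called 0 of 28 members, where 0.0266% of all genes were called, the sex-linked Ddx3y, Eif2s3y and Xist. Of the X-linked members, G6pdx had a log2 difference of -0.31 (95% interval -0.76 to 0.14), males minus females, and Pgk1 one of 0.06 (-0.54 to 0.65). No member reached an unadjusted p under 0.05 in this comparison.

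Within each sex, the order of the chows was opposite for many members. In males the bezafibrate libraries lay below the untreated one, and in females above both untreated ones, for 10 of 28 members, against 21.7% of all genes. These were Slc2a1, Slc16a3, Hk1, Gpi1, Pfkp, Aldoa, Pgk1, Pgam1, Pkm and Ldha. The reverse, above in males and below in females, held for Slc16a1, Pfkm, Eno1, H6pd, Pgls, Rpia and Rpe, 7 of 28 members against 20.0% of all genes. G6pdx alone lay above in both sexes, where 8.3% of all genes did, and Pfkfb3, Gapdh and Ldhb lay below in both, where 8.34% did. The remaining 7 members overlapped in at least 1 sex. These orders rest on single libraries, bezafibrate F_1 among females and untreated M_1 among males, the same libraries that stood apart on the first principal component.

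A fit with chow, sex and their product, added after this pattern was seen, tested whether the effect of bezafibrate differed between males and females. It called 1 of 28 members, Slc16a3, where 0.665% of all genes were called. In males Slc16a3 had 0.592 and 0.470 FPKM with bezafibrate and 5.995 FPKM without it. In females it had 2.12 FPKM with bezafibrate and 0.916 and 1.20 FPKM without it. The effect in males minus that in females was -2.80 on the log2 scale (SE 0.370, limma adjusted p = 0.0471). Slc16a1 had the opposite sign, 1.91 (SE 0.307, adjusted p = 0.0576), with 63.1 and 60.04 FPKM in bezafibrate males against 36.9 FPKM in the untreated male pool, and 29.4 FPKM in the bezafibrate female pool against 78.1 and 59.5 FPKM in untreated females. Slc2a1 followed Slc16a3 in sign at -1.44 (SE 0.478, adjusted p = 0.164), as did Pgk1 at -1.02 (SE 0.262, adjusted p = 0.103), and Rpe followed Slc16a1 at 1.09 (SE 0.326, adjusted p = 0.138).

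These calls changed with the processing. The limma adjusted p of Slc16a3 ranged from 0.00112 by limma-voom to 0.180 without bezafibrate M_1, and the gene was not tested with a filter at 5 FPKM or without untreated F_2. That of Slc16a1 ranged from 0.000923 by limma-voom to 0.180 without bezafibrate M_1. Slc16a1 was also called with a filter at 5 FPKM (limma adjusted p = 0.0139), after rescaling to TPM (0.0397) and without untreated F_2 (0.0186). By limma-voom, Eno1 (adjusted p = 0.0269) and Rpe (0.0444) were called as well. The fit has 2 residual degrees of freedom and cannot be made without bezafibrate F_1 or untreated M_1. Beside it stand other values of these 2 libraries. Summed endothelial markers were 5541 FPKM in bezafibrate F_1 and 5703 FPKM in untreated M_1, against 4334 to 5452 FPKM in the others, and the ratio of recovered reads to the library size behind the FPKM was 1.06 and 1.09, against 0.888 to 1.03. Their part in the result was not tested, and a library, its sex and its chow cannot be told apart here.

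**Figure D5:**
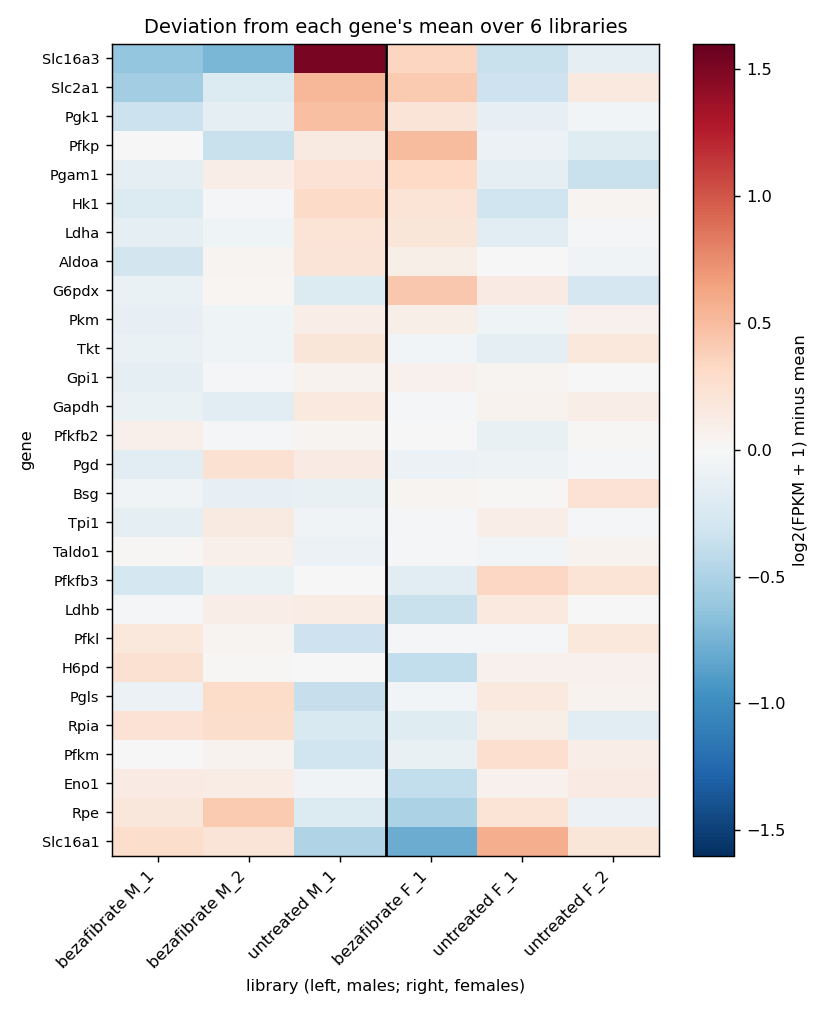
Deviation of each tested member from its mean over 6 libraries, in log2(FPKM + 1), with males left and females right of the line and bezafibrate left of untreated within each sex; genes are ordered by the effect of bezafibrate in males minus that in females. Slc16a3, at the top, is highest in untreated M_1 and lowest in bezafibrate M_2, and Slc16a1, at the bottom, is lowest in bezafibrate F_1.

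Neighbouring genes of the pathway, from lists drawn up with earlier results of these data known, had no call between the chows either. Of 29 genes of glycogen, hexosamine, polyol and glycerol phosphate branches, 22 were tested and 10 lay above 0 and 12 below, with a median of -0.06. Uap1, a hexosamine pathway enzyme, had 32.6, 18.9 and 18.3 FPKM in bezafibrate F_1, M_1 and M_2, against 23.3, 27.96 and 45.7 FPKM in untreated F_1, F_2 and M_1, the same pair of libraries being highest. Pgm1, Gpd1, Gpd1l and Gnpda1 had log2 differences of -0.35, -0.34, 0.18 and 0.22. Gys1, glycogen synthase, had 1.40, 1.79 and 1.88 FPKM in bezafibrate libraries, against 1.42, 1.24 and 1.09 FPKM in untreated libraries, with a log2 difference of 0.25 (limma adjusted p = 0.999).

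Of 18 regulators of glycolysis, 12 were tested, 6 above 0 and 6 below, with 10 above 0 after rescaling to TPM. Hif1an, the asparagine hydroxylase that restrains HIF, had 3.59, 3.62 and 3.53 FPKM in bezafibrate libraries, against 2.76, 2.69 and 2.63 FPKM in untreated libraries. Every bezafibrate library lay above every untreated one, which held for 4.29% of all genes tested. The log2 difference was 0.31 with an upper 95% bound of 0.62 and no call. Txnip, which promotes removal of GLUT1 from the surface, had 305 ± 41.1 FPKM in bezafibrate and 330 ± 57.0 FPKM in untreated libraries (SD, n = 3 each). Klf2, a flow-responsive factor of endothelium, had 1649 ± 149 and 1947 ± 228 FPKM. Nfe2l2, Prkaa1 and Vhl had log2 differences of -0.31, 0.14 and 0.16.

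Of 19 HIF targets outside glycolysis, 16 were tested, 8 above 0 and 8 below, with a median of 0.02, and 1 had an unadjusted p under 0.05. That was Bhlhe40, a transcriptional repressor, with 123, 67.1 and 78.4 FPKM in bezafibrate F_1, M_1 and M_2, against 126, 133 and 131 FPKM in untreated F_1, F_2 and M_1. Its bezafibrate libraries all lay below the untreated ones, which held for 4.13% of all genes tested. The log2 difference was -0.58 with an upper 95% bound of -0.06, and Bhlhe40 was not called. Ndrg1, Higd1a, Vegfa, P4ha1 and Ddit4 had log2 differences of -0.29, -0.29, 0.15, 0.31 and 0.33. Among 23 further paralogs, 4 passed the filter (Aldoc, Pgam2, Adpgk and Eno3), with log2 differences of -0.45, -0.00, 0.11 and 0.26 and no call.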

How the data were processed

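The data are 6 RNA-seq libraries from sorted endothelial cells of mouse brain. Per the labels' protocols, brains were digested with papain, collagenase and neutral protease, myelin was removed on 22% Percoll, and SMART-Seq HT cDNA was read as single ends of 75 bases. Salmon quantified the de-duplicated reads, per the labels, and GRCm38 is named in the submitters' processing notes. Software version, gene annotation, strand setting and normalisation: not given in the sources used here. Per the file headers, the deposited values are FPKM made by the authors, beside each gene's length. The untreated male library's column carries a number that differs from its title, and the sample's description links them.

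FPKM times gene length fell on whole reads for 100% of values (tolerance 0.01 reads), which gave the depth of 16858130 to 20228619 reads per library. How whole reads arose from the Salmon step named in the labels is not given, nor is the tool that made the FPKM. Analysis used log2(FPKM + 1), which understates changes of low genes. Genes with at least 1 FPKM in at least 3 libraries entered a two-sided test with limma 3.58.1 under R 4.3.3 (moderated by eBayes with a trend), with Benjamini-Hochberg adjustment over all 11277 genes and a threshold of 0.05, after a test on simulated data. Pools of different animals are the replicates. Shares of a step were compared by exact permutation (Python 3.11.15). The alternatives were a pseudocount of 0.1, no filter, a filter at 5 FPKM, TPM, quantile scaling, limma-voom, sex as a covariate, a replicate block and left-out libraries. Shared windows and overlaps were read from GENCODE transcripts of GRCm38, in which 32 of the 33 rows have the table's position. Coordinates are the table's unless RefSeq is named.

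The members and lists were chosen with earlier results of these data known. All 32 members were described. From each other list the text names any called gene, the 3 tested genes with the largest positive and the 3 with the largest negative difference, and the most abundant paralog of a step.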

Additional observations from a re-analysis of the deposited data

Results flagged for a closer look

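For Slc16a3, the difference between bezafibrate and untreated libraries gave -2.80 on the log2 scale for males minus females (limma adjusted p = 0.0471), in a fit added after the pattern was seen. The bezafibrate male libraries (0.592 and 0.470 FPKM) lay below the untreated male library (5.995 FPKM), and the bezafibrate female library (2.12 FPKM) lay above the untreated female libraries (0.916 and 1.20 FPKM). The value rests on 1 bezafibrate female library and 1 untreated male library, the same libraries that stood apart on the first principal component, so a library, its sex and its chow cannot be told apart and no effect of sex is shown. The value lay between -4.23 and -2.70 in the alternatives that tested Slc16a3. The call held by limma-voom (adjusted p = 0.00112), after rescaling to TPM (0.0464) and without untreated F_1 (0.0479). It was lost with a pseudocount of 0.1 (limma adjusted p = 0.0597), without a filter (0.0677), with quantile scaling (0.0594), without bezafibrate M_1 (0.180) and without bezafibrate M_2 (0.159). Slc16a3 was not tested with a filter at 5 FPKM or without untreated F_2.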

How the results depend on the processing

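Members called between the chows, and between males and females, stayed at 0 under every alternative that could be fitted. Of 408 recomputed member differences between the chows, 406 moved by less than 1 standard error. The exceptions were G6pdx without bezafibrate F_1 and untreated M_1 (0.03) and Rpe without bezafibrate F_1 (0.33). Between the chows, the smallest limma adjusted p of a member was 0.583. Between males and females it was 0.140, in the fit without untreated M_1.

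The single gene called between the chows became 0 by limma-voom, 0 with the replicate block and 0 without bezafibrate F_1 and untreated M_1, and 0 to 3 with 1 library left out (3 without bezafibrate F_1, 0 without bezafibrate M_1 or M_2). The members' median of -0.056 moved to 0.059 with TPM, 0.0097 with quantile scaling and 0.054 with limma-voom, and lay between -0.093 and -0.0099 with 1 library left out and at -0.10 with the block. Genes called between males and females numbered 1 to 4 with 1 library left out. For the effect of bezafibrate by sex, 75 genes and 1 member (Slc16a3) were called. These became 478 and 0 without a filter, 571 and 1 (Slc16a1, with Slc16a3 not tested) at 5 FPKM, 222 and 2 (Slc16a1 and Slc16a3) with TPM, 1 and 0 with quantile scaling, and 1084 and 4 (both of these, Eno1 and Rpe) with limma-voom. They became 67 and 0 with a pseudocount of 0.1, and lay between 0 and 548 genes and between 0 and 1 member with 1 library left out (0 and 0 without bezafibrate M_1 or M_2, 548 and 1 without untreated F_2, the member being Slc16a1, with Slc16a3 not tested). Steps whose shares did not overlap numbered 2 from recovered reads and 1 to 3 with 1 library left out. The cause of these shifts was not tested.

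Libraries with the same number in their titles did not deviate together (correlation of deviations -0.36 for F_1 and -0.30 for M_1). By its column's number, untreated M_1 would stand with bezafibrate M_2, where the correlation was -0.16. The numbers were therefore not taken to pair the libraries. The replicate block, numbered by title, left members called at 0. The sex fit without bezafibrate F_1 and untreated M_1, and the fit with the product term without either, could not be made. With 3 pools per chow, changes within the printed intervals cannot be seen. Slc16a3 rested on as few as 47 reads in a library (bezafibrate M_2), and Pfkfb3 on 220 to 416.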
